A study of Mus musculus with 6 samples.

Results

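Cerebrospinal fluid is secreted by the choroid plexus, and the transcripts described here encode the transporters, channels and enzymes that move bicarbonate, chloride, sodium, potassium and water across its epithelium. They are the 10 genes Slc4a5, Slc4a2, Slc4a10, Slc12a2, Kcnj13, Kcne2, Aqp1, Car12, Clic6 and Atp1b1, out of 54838 genes in a count table of mouse hippocampus, and they were found there by gene symbol. The genes were picked with the difference between the genotypes in this same table already known, so their levels and fold changes are given as a description. No p-value is printed for them, and where they are counted past a threshold, the share of all genes past it stands beside the count. RNAseq was carried out on 1 hippocampal library from each of 3 wild-type and 3 FVB/NJ-Tg(ORAI1)Ibd females, all 7 months of age. The transgenic mice (tg1 to tg3) belong to a single line that carries a human ORAI1 cDNA, encoding the pore subunit of a store-operated calcium channel, in a modified Thy-1.2 cassette, which drives expression in neurons. The wild-type mice (wt1 to wt3) lack this transgene, and the labels name no further allele or treatment in either genotype. The comparison made here asks how far the secretion genes differed between these genotypes, and whether the genes that are largely confined to the choroid plexus within the brain differed as much as those that other brain cells also express.

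The choroid plexus is a sheet of epithelial cells around a core of vessels that hangs into the brain ventricles, and one of its folds lies along the hippocampus. Carbonic anhydrases supply bicarbonate and protons inside the cell, exchangers on the blood side bring in chloride and sodium bicarbonate, and the sodium pump, the sodium-potassium-chloride cotransporter, potassium channels and aquaporin on the ventricle side complete the path of ions and water. Slc4a5, Kcnj13, Kcne2, Aqp1 and Clic6 were taken as choroid-restricted within the brain, and Slc4a2, Slc4a10, Slc12a2, Car12 and Atp1b1 as broadly expressed, from general knowledge of these genes. Earlier results of these data were known when this split was made.

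The libraries held 37414241 to 52497799 fragments counted on genes, and normalized counts are given as CPM, counts divided by the scaled library total and given on the usual CPM scale. The hippocampus label was checked on 6 marker genes of hippocampal neurons (Prox1, C1ql2, Wfs1, Fibcd1, Neurod6 and Spink8), whose summed level was 554 to 566 CPM in the wild-type and 571 to 615 CPM in the transgenic libraries. All 6 were counted in every library. Some markers set wt3, tg2 and tg3 apart from the other mice, across the genotypes: Gfap had 836, 922 and 840 CPM in these and 323 to 386 CPM in wt1, wt2 and tg1, and C1ql2 had 52.3, 69.6 and 68.8 CPM against 24.7 to 33.8 CPM. Transcripts of choroid plexus epithelium were counted in every library too, and of 16 of its marker genes that are not among the 10 transport genes, none was at 0 in any library. Their summed level was 3933 to 6056 CPM in the wild-type and 618.5 to 880.6 CPM in the transgenic mice. Since the libraries were made from whole hippocampi, fewer choroid plexus cells in the sample and less RNA per cell cannot be told apart in any value below. The sources used here do not say how much choroid plexus was kept or removed at dissection.

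All 10 transport genes were lower in the transgenic hippocampi, and the 5 choroid-restricted genes differed most. The median log2 fold change was -2.78 for the choroid-restricted genes, from -3.69 (Slc4a5) to -2.45 (Clic6), and their transgenic means were 7.67% to 18.2% of the wild-type means. For the broadly expressed genes the median was -0.60, from -1.15 (Slc4a2) to -0.17 (Atp1b1), and 45.0% to 88.9% of the wild-type level remained. The ranges of the fold changes in these classes did not overlap, and the median of all 19087 genes tested was -0.010. The classes were drawn with earlier results of these data known, so their separation is a description. In 10 of the 10 genes the transgenic mice all lay below the wild-type mice, so that tg1 was below wt1 and wt2, and tg2 and tg3 below wt3, an arrangement found in 17.9% of all genes tested. With edgeR's quasi-likelihood test and Benjamini-Hochberg adjustment over all genes, 8 of the 10 were lower with an adjusted p under 0.05, where 4.0% of all genes tested were lower at this threshold. The 8 were the 5 choroid-restricted genes with Slc4a2, Slc12a2 and Car12. Because the genes were chosen from this contrast, these counts say nothing beyond the choice. A log2 fold change under -1 was reached by these 5 and Slc4a2, 6 of the 10, and by 1.54% of all genes tested. One under -2 was reached by the 5 choroid-restricted genes and by 0.335% of all genes tested. Ranked from the most lowered gene, Slc4a5 stood at 7, Kcne2 at 10, Aqp1 at 26, Kcnj13 at 36 and Clic6 at 43 of the 19087.

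**Figure D1:**
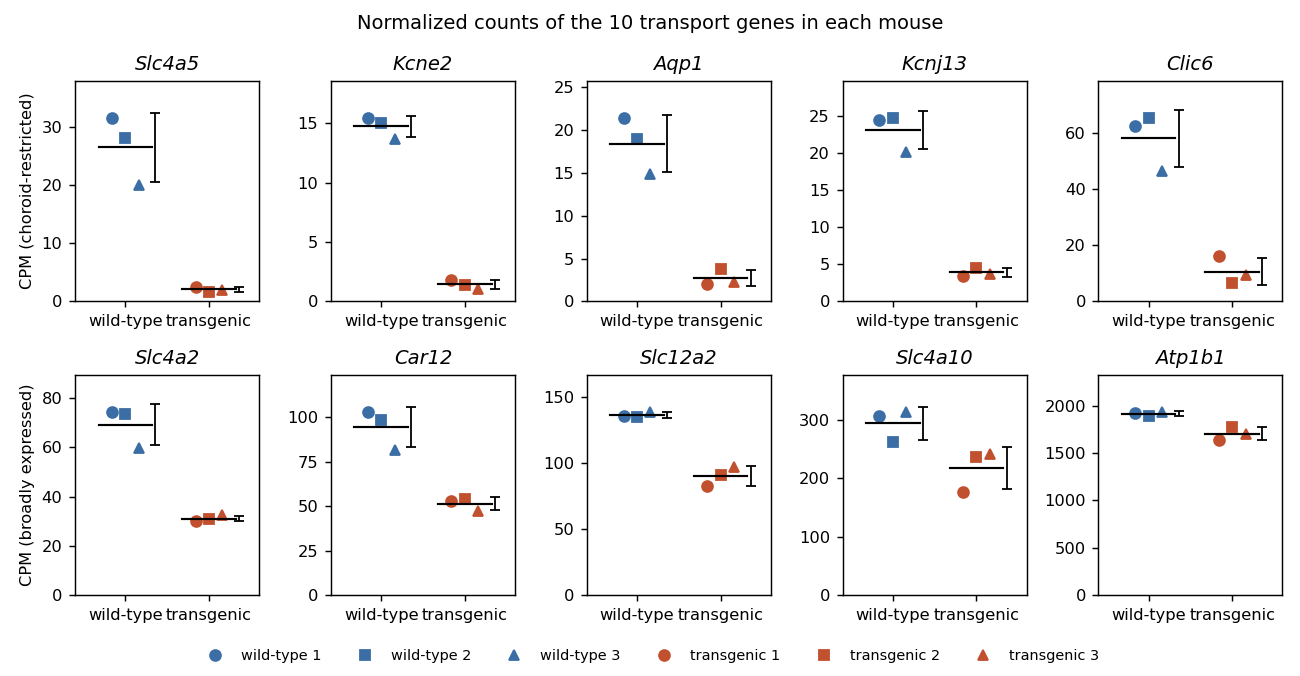
Normalized counts (CPM, linear axes from 0) of the 10 transport genes in each mouse, with the choroid-restricted genes in the upper row and the broadly expressed genes in the lower row. Symbols mark replicates 1 to 3, horizontal lines the means and bars the SD of 3 mice; every transgenic point lies below every wild-type point, and relative to the wild-type mean the gap is wider in each gene of the upper row than in any of the lower row.

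Slc4a5 encodes an electrogenic sodium bicarbonate cotransporter of the ventricle-facing membrane and lies on the plus strand of chromosome 6 of GRCm38, from 83219828 to 83304945. It was counted at 31.6, 28.1 and 20.02 CPM in wt1, wt2 and wt3 and at 2.49, 1.63 and 2.003 CPM in tg1, tg2 and tg3. The highest transgenic value was far below the lowest wild-type value, and the third wild-type mouse was the lowest of its group. The means were 26.6 ± 5.94 and 2.04 ± 0.432 CPM (SD, n = 3 per genotype), a log2 fold change of -3.69 (standard error 0.22), or 13.0-fold lower, the largest difference of the 10 genes. Behind the transgenic values stood 116, 62 and 75 fragments.

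Potassium is taken back from the ventricle and recycled for the pump through channels in the same membrane. Kcnj13, on the minus strand of chromosome 1 from 87386363 to 87394729, encodes the inward rectifier Kir7.1. The wild-type mice had 24.4, 24.8 and 20.2 CPM and the transgenic mice 3.45, 4.56 and 3.71 CPM. The groups were far apart, and the transgenic mice were closer to each other than in the other choroid-restricted genes, with a ratio of 1.32 between the highest and the lowest. The means were 23.2 ± 2.56 and 3.91 ± 0.580 CPM (SD, n = 3), a log2 fold change of -2.57 (standard error 0.13). Kcne2, the accessory subunit of voltage-gated potassium channels, on the plus strand of chromosome 16 from 92292389 to 92298129, had 15.5, 15.02 and 13.7 CPM in the wild-type and 1.82, 1.36 and 1.07 CPM in the transgenic mice. The wild-type mice were nearly equal, and no transgenic mouse came near them. The means of 14.7 ± 0.909 and 1.42 ± 0.380 CPM (SD, n = 3) differed by a log2 fold change of -3.36 (standard error 0.18), 10.4-fold lower. The paper also measured Kcne2 and Clic6, with the choroid plexus genes Folr1 and Kl, by real-time PCR in hippocampi of younger mice. Each was lower on average in its transgenic mice, but by a smaller factor than here. The paper's Tukey test gave no clear difference for any of them. The fold changes given here therefore describe these libraries, and whether they hold in other mice was not tested.

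Aqp1, the water channel of the ventricle-facing membrane, lies on the plus strand of chromosome 6 from 55336432 to 55348555. Its levels were 21.5, 19.0 and 14.9 CPM in the wild-type and 2.08, 3.75 and 2.30 CPM in the transgenic mice. Here tg2 stood above the other transgenic mice, but still far below the wild-type mice. Its 95% exact Poisson interval of 3.16 to 4.42 CPM, which covers counting error only, lay above that of tg1, 1.69 to 2.54 CPM. The means were 18.4 ± 3.31 and 2.71 ± 0.907 CPM (SD, n = 3), and the log2 fold change was -2.78 (standard error 0.23).

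Clic6 belongs to the chloride intracellular channel proteins and lies on the plus strand of chromosome 16 from 92485736 to 92541243. The wild-type mice had 62.8, 65.6 and 46.7 CPM. The transgenic mice had 16.1, 6.40 and 9.40 CPM. All of these were lower than any wild-type value, yet they spread more than in any other of the 10 genes, with 2.52 times as much in tg1 as in tg2. The counting intervals of tg1 (14.97 to 17.3 CPM) and tg2 (5.62 to 7.25 CPM) were apart. The means were 58.4 ± 10.2 and 10.6 ± 4.97 CPM (SD, n = 3), with a log2 fold change of -2.45 (standard error 0.30), the largest standard error among the 10.

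Within the choroid-restricted class the mice did not keep a common order. The third wild-type mouse was the lowest of its group in 5 of 5 genes. Among the transgenic mice, tg1 was the highest for Slc4a5, Kcne2 and Clic6 and tg2 for Kcnj13 and Aqp1. The coefficient of variation between mice was 6.17% to 22.4% in the wild-type and 14.8% to 46.7% in the transgenic groups. For 11191 genes with a mean log2 CPM above 3, the median coefficient of variation was 4.602% in the wild-type and 5.47% in the transgenic mice. Slc4a5, Kcne2 and Aqp1 lie below that level, so these sets are unlike. Their transgenic counts of 40 to 143 fragments per library carry more counting error. In the broadly expressed class it was 1.32% to 12.1% and 3.70% to 16.5%, and tg1 was the lowest transgenic mouse in 4 of 5 genes.

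Among the broadly expressed genes, the bicarbonate transporters of the blood-facing membrane come first. Slc4a2, an anion exchanger that trades bicarbonate for chloride in many tissues, lies on the plus strand of chromosome 5 from 24423837 to 24440950. Its 3 wild-type values were 74.6, 73.4 and 59.6 CPM and its transgenic values 30.1, 30.9 and 32.4 CPM. The transgenic mice were close together at less than the lowest wild-type value. The means were 69.2 ± 8.34 and 31.1 ± 1.15 CPM (SD, n = 3), a log2 fold change of -1.15 (standard error 0.090). Slc4a10 is a sodium-dependent bicarbonate transporter of neurons as well as of the choroid plexus and lies on the plus strand of chromosome 2 from 62046462 to 62326730. It reached 307, 262 and 315 CPM in the wild-type and 177, 236 and 242 CPM in the transgenic mice. The wild-type mouse with the lowest value and the transgenic mouse with the highest were close, and tg1 was the lowest of all. The log2 fold change was -0.44 (standard error 0.13), from means of 295 ± 28.4 and 218 ± 36 CPM (SD, n = 3). Without tg1 the log2 fold change was -0.30, and with a correction for GC content it was -0.32. Its transcripts had the lowest GC content of the 10 genes, 42.1%, where the others had 44.2% to 58.3%.

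Car12 encodes a carbonic anhydrase anchored at the cell surface and lies on the plus strand of chromosome 9 from 66713686 to 66766845. The wild-type mice had 103, 98.6 and 81.6 CPM and the transgenic mice 52.9, 53.9 and 47.1 CPM. The groups were clearly apart, and the third mouse was the lowest in both. The log2 fold change was -0.88 (standard error 0.095), from means of 94.4 ± 11.3 and 51.3 ± 3.68 CPM (SD, n = 3).

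Slc12a2 encodes the sodium-potassium-chloride cotransporter NKCC1, which is found in the ventricle-facing membrane of the choroid plexus and in neurons and glia, and lies on the plus strand of chromosome 18 from 57878678 to 57946821. In the wild-type mice 136, 135 and 139 CPM were counted, and in the transgenic mice 82.5, 91.4 and 96.9 CPM. The wild-type mice were nearly equal and the groups did not overlap. The means were 137 ± 2.26 and 90.3 ± 7.29 CPM (SD, n = 3), a log2 fold change of -0.60 (standard error 0.062), or 1.51-fold lower. Atp1b1 encodes the beta subunit of the sodium pump that neurons use throughout the brain, and lies on the minus strand of chromosome 1 from 164437109 to 164458355. Its values were 1919, 1888 and 1937 CPM in the wild-type and 1635, 1776 and 1697 CPM in the transgenic mice. Although the groups did not overlap, the difference was the smallest of the 10 genes, with a log2 fold change of -0.17 (standard error 0.056) and 88.9% of the wild-type level remaining.

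Levels of different genes were compared as FPKM, the fragments counted, divided by the gene length and by the library total. In the wild-type mice Atp1b1 was the highest at 622 ± 8.997 FPKM (SD, n = 3), followed by Slc4a10 at 45.9 ± 4.44 and Slc12a2 at 21.0 ± 0.400 FPKM. The next were Kcnj13 (18.2 ± 1.97 FPKM), Clic6 (14.9 ± 2.58 FPKM) and Car12 (12.4 ± 1.45 FPKM), and Kcnj13 and Clic6, and Clic6 and Car12, overlapped between mice. Kcne2 (8.34 ± 0.489 FPKM), Slc4a2 (8.32 ± 0.980 FPKM) and Aqp1 (7.02 ± 1.24 FPKM) formed a group in which each overlapped its neighbour, and Slc4a5 was the lowest at 4.58 ± 1.01 FPKM, with its 3 values apart from those of Aqp1. In the transgenic mice the same 3 genes led the order, with 552 FPKM for Atp1b1, 33.9 FPKM for Slc4a10 and 13.8 FPKM for Slc12a2. Car12 (6.74 FPKM) and Slc4a2 (3.73 FPKM) then stood before all choroid-restricted genes by their means, although Slc4a2 overlapped Kcnj13 (3.07 FPKM), and Clic6 (2.71 FPKM), which ranged from 1.64 to 4.08 FPKM, overlapped both. Aqp1 (1.03 FPKM) and Kcne2 (0.800 FPKM) overlapped, and Slc4a5 was again the lowest at 0.350 FPKM. Summed over the class, the choroid-restricted genes had 53.1 FPKM in the wild-type and 7.96 FPKM in the transgenic mice, and the broadly expressed genes 709.4 and 609.9 FPKM. As a difference in FPKM rather than a ratio, Atp1b1 lost the most, 70.1 FPKM, followed by Kcnj13 with 15.2 FPKM, while Slc4a5, the gene with the largest fold change, lost the least, 4.23 FPKM.

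The sequences before the transcription starts of 4 genes are shown because genes that were lower together differed in their CpG content there. RefSeq promoter windows for GRCm38.p6 matched 8 of the 10 genes, with 11 windows of 250 bases, and Clic6 and Slc12a2 were not among them. The windows below, 5′ to 3′ on the strand of the gene, belong to a pair of choroid-restricted and a pair of broadly expressed genes, and capitals mark the CpG dinucleotides. They lie at chr1:87394730-87394979 on the minus strand (Kcnj13), chr6:83237125-83237374 on the plus strand (Slc4a5), chr5:24424982-24425231 on the plus strand (Slc4a2, the first of its windows) and chr1:164458356-164458605 on the minus strand (Atp1b1).
Kcnj13: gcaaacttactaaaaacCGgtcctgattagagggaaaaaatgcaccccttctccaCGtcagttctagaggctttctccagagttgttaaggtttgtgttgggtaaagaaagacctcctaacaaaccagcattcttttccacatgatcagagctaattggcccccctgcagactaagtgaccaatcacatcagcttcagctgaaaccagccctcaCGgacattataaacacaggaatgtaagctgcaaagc
Slc4a5: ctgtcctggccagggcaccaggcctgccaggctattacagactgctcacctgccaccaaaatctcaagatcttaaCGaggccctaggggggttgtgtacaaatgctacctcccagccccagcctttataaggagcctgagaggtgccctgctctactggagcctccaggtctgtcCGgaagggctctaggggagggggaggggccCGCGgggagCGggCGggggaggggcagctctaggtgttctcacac
Slc4a2: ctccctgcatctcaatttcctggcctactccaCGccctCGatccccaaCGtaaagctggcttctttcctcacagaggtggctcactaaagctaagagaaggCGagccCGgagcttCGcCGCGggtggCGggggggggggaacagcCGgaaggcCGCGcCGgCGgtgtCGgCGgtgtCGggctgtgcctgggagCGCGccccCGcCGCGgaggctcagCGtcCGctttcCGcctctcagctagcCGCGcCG
Atp1b1: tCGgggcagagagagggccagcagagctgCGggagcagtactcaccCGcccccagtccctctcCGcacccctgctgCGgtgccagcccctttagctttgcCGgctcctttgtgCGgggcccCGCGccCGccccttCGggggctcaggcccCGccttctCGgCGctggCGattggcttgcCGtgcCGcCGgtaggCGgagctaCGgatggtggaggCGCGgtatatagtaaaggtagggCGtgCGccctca

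Kcnj13 had 3 CpG and Slc4a5 had 6 CpG in these windows, and Slc4a2 and Atp1b1 had 28 and 24 CpG. The other window of Slc4a2, which is not shown, had 16 CpG. The median over 32851 windows of this length was 6 CpG. Of the other choroid-restricted genes, Aqp1 had 5 CpG and Kcne2 had 9 and 1 CpG in its windows. The broadly expressed class did not share the CpG-rich pattern as a whole, since Car12 had 6 CpG and Slc4a10 had 3 and 2 CpG. The letters TATAAA, searched on both strands, were found in 12.4% of all windows and in 3 of the 11, those of Kcnj13, Slc4a5 and the first of Slc4a10. The letters TAATCC, the core of the sites of Otx factors, were found on either strand in 6.25% of all windows and in none of the 11. The windows of Slc4a5 and Slc4a2 lie inside the genes as the annotation of the counts has them, before a start that RefSeq gives.

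To see how far other genes of the same kinds differed, the families of the 10 genes (Slc4, Slc12, Kcnj, Kcne, Aqp, Car, Clic, Atp1b) and the other sodium pump families Atp1a and Fxyd were taken by symbol. Of their 76 other genes, 57 passed the filter on low counts. By edgeR's quasi-likelihood test, 4 of the 57 (7.02%) were lower and 2 (3.51%) higher with an adjusted p under 0.05, where 4.0% and 3.1% of all genes tested were. Their median log2 fold change was -0.0023, with 29 lower and 28 higher. The 4 lower genes were Slc4a4, a sodium bicarbonate cotransporter of astrocytes (log2 fold change -0.28, edgeR adjusted p = 0.0349), the potassium-chloride cotransporter Slc12a4 (-0.41, adjusted p = 0.0282), the neuronal inward rectifier Kcnj3 (-0.25, adjusted p = 0.0450) and the carbonic anhydrase Car14 (-0.70, adjusted p = 0.0326). The 2 higher genes were Car15 (0.60, edgeR adjusted p = 0.0445) and the sodium pump modulator Fxyd6 (0.28, adjusted p = 0.0406). With each mouse left out in turn, these genes passed in 0 to 2 of the 6 fits. With offsets for GC content or for gene length, Slc12a4 and Car14 still passed, and Slc4a4 (edgeR adjusted p = 0.0811 and 0.0913), Kcnj3 (0.129 and 0.0533), Car15 (0.083 and 0.07) and Fxyd6 (0.0584 and 0.0552) did not.

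In some families 1 gene is choroid-restricted while a sister gene is abundant in glia or neurons. Beside Aqp1, the astrocyte water channel Aqp4 had 189 ± 45.3 CPM in the wild-type and 181 ± 50.4 CPM in the transgenic mice (SD, n = 3), a log2 fold change of -0.060 (standard error 0.23). Beside Kcnj13, the astrocyte channel Kcnj10 had 299.5 ± 34.6 and 306 ± 5.57 CPM, a log2 fold change of 0.031 (standard error 0.080). Neither of these sister genes passed the threshold of edgeR's test, with adjusted p of 0.897 and 0.835. Each has the highest FPKM of the other genes in its family. The same choice gave Slc12a5 (log2 fold change -0.033), Kcne4 (-0.30), Car2 (-0.13), Clic4 (-0.18), Atp1b2 (0.021) and Fxyd7 (0.19), which did not pass, and Slc4a4, which passed as given above.

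**Figure D2:**
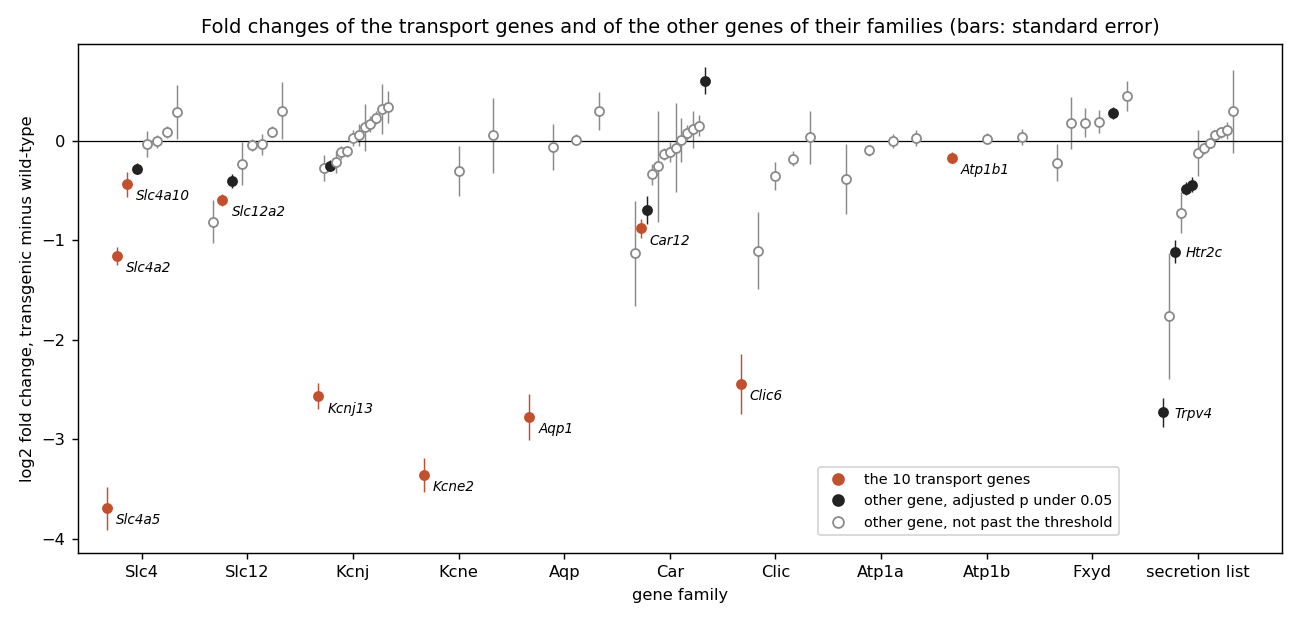
Log2 fold changes (transgenic minus wild-type, bars are standard errors) of the 10 transport genes in red, with every other gene of their families that passed the filter, and a list of 13 regulators of secretion. The other family genes run from -1.13 to 0.60 around a median of -0.0023, while the 5 choroid-restricted genes lie between -3.69 and -2.45.

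A list of 13 further channels, exchangers, kinases and receptors linked to fluid secretion was examined in the same fit, and 4 were lower and 0 higher by edgeR's test over all genes. The 4 are 30.8% of the list, where 4.0% of all genes tested were lower. This list was chosen with earlier results of these data known, so its count is a description. At an unadjusted p under 0.05, 6 were lower and 0 higher, where 14.8% and 13.0% of all genes tested were, and DESeq2's Wald test and limma-voom also called 0 higher. Trpv4, the osmosensitive cation channel of the choroid plexus, had 11.9, 12.3 and 9.25 CPM in the wild-type and 1.72, 1.70 and 1.602 CPM in the transgenic mice. The groups were far apart and the transgenic mice nearly equal. The log2 fold change was -2.73 (standard error 0.14, edgeR adjusted p = 2.3e-04), within the range of the choroid-restricted class. The serotonin receptor Htr2c, strong in the choroid plexus but also made by neurons, had 84.4, 77.2 and 60.1 CPM in the wild-type and 33.04, 35.8 and 33.7 CPM in the transgenic mice. The third wild-type mouse was again the lowest of its group, and its value still exceeded all transgenic values. Its log2 fold change was -1.11 (standard error 0.12, edgeR adjusted p = 0.00570), close to that of Slc4a2. The kinase Stk39 (SPAK), which activates the cotransporter encoded by Slc12a2, fell by 0.48 on the log2 scale (standard error 0.066, edgeR adjusted p = 0.0143), and the potassium channel Kcna1 fell by 0.44 (standard error 0.078, edgeR adjusted p = 0.0271). The chloride channel Clcn2, the gene of the list with the highest mean FPKM over the 6 libraries, differed by 0.085 in log2 and did not pass (edgeR adjusted p = 0.334). In the wild-type mice alone Kcna1 (17.7 FPKM) and Stk39 (17.03 FPKM) stood above Clcn2 (14.96 FPKM). Trpv4 and Htr2c passed with each of the 6 mice left out in turn, and Stk39 and Kcna1 in 2 of these 6 fits.

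The transport genes were next set beside the markers of the cell types that a hippocampal sample can hold. All 16 choroid plexus markers were lower, 15 of them with an adjusted p under 0.05 by edgeR's test, where 4.0% of all genes tested were lower at this threshold, and their log2 fold changes ran from -4.35 to -0.64 around a median of -2.22. The choroid-restricted transport genes, at -3.69 to -2.45, lay inside that range. The list was put together with earlier results of these data known, so its count is a description too. The exception was Slc13a4, a sulfate transporter (edgeR adjusted p = 0.338), with 48.8, 51.2 and 51.5 CPM in the wild-type and 12.7, 49.5 and 35.6 CPM in the transgenic mice. Ependymal markers, from the cells that line the ventricles, were lower in 6 of 6 genes with a median of -0.58, and 1 of them, Hydin, passed. Their summed level was 46.5 to 63.8 CPM in the wild-type and 30.6 to 42.0 CPM in the transgenic mice. In the lists for meningeal fibroblasts, astrocytes, oligodendrocytes, microglia, neurons, hippocampal neurons and red blood cells no gene of the 33 tested passed with edgeR, DESeq2's Wald test or limma-voom, and 1 was higher at an unadjusted p under 0.05. Among 5 endothelial genes Cldn5 was higher. The summed neuronal markers were 6968 to 7315 CPM in the wild-type and 6969 to 7591 CPM in the transgenic mice, and 1 red blood cell gene, Hba-a2, was at 0 in wt3 and tg3. The part of the choroid plexus markers in the differences of the transport genes was not tested.

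**Figure D3:**
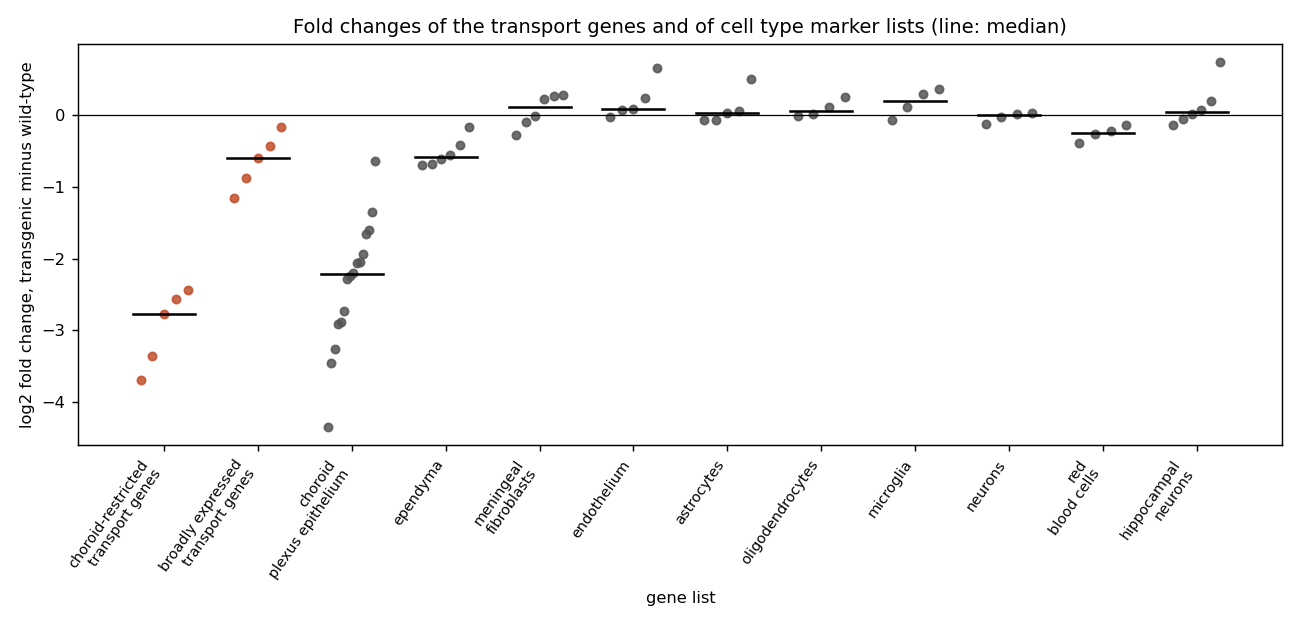
Log2 fold changes (transgenic minus wild-type) of the transport genes in red and of marker genes of 10 cell types in grey, with 1 point per gene that passed the filter and a line at each median. The choroid-restricted transport genes (median -2.78) lie beside the choroid plexus markers (-2.22) and the broadly expressed ones (-0.60) beside the ependymal markers (-0.58), while the medians of the other lists run from -0.24 to 0.21.

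Each transport gene was then expressed relative to the mean log2 CPM of the 16 choroid plexus markers, which was 5.33 in the wild-type and 2.97 in the transgenic mice. Relative to this mean, Kcnj13, Clic6 and Aqp1 differed between the genotypes by -0.19, -0.17 and -0.41 on the log2 scale, with overlapping mice. Slc4a5 was at -0.48, -0.63 and -0.75 in the wild-type and at -1.74, -2.05 and -1.98 in the transgenic mice. The groups did not overlap, with a difference of -1.30 beyond that of the markers, and they did not overlap for Kcne2 either, with a difference of -1.001. The broadly expressed genes lay the other way, since all transgenic mice lay above the wild-type mice, by 1.22 (Slc4a2), 1.49 (Car12), 1.76 (Slc12a2), 1.92 (Slc4a10) and 2.19 (Atp1b1). Against Ttr alone, the transthyretin transcript that is the most abundant of the markers, the ratios of the choroid-restricted genes were higher. This reference was added after the data were seen. Ttr itself fell from 3506, 3890 and 2042 CPM in the wild-type to 383, 179 and 301 CPM in the transgenic mice. Relative to it Slc4a5 and Kcne2 differed by -0.20 and 0.10 in log2, with overlapping mice, and Kcnj13 (0.91) and Aqp1 (0.69) also overlapped, whereas in Clic6 (0.93) all transgenic mice were above the wild-type mice. Such a ratio is the difference of the gene less that of its reference, so Ttr in place of the list shifts every gene alike and leaves their order as it was, and a gene less lowered than both references lies above both, as the 5 broadly expressed genes do.

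**Figure D4:**
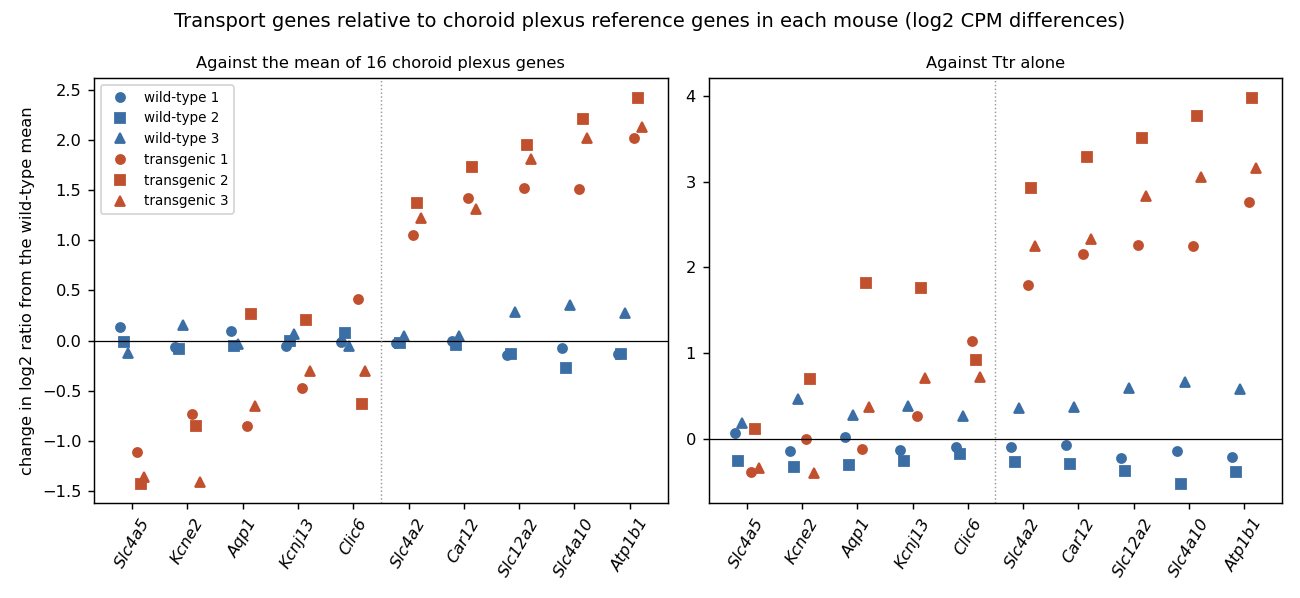
Change of the log2 ratio of each transport gene to the mean of 16 choroid plexus markers (left) and to Ttr alone (right), per mouse, with the wild-type mean of each gene set to 0. Blue symbols are wild-type and red symbols transgenic mice; the 5 broadly expressed genes rise above 0 in all transgenic mice in both panels, while the choroid-restricted genes of the transgenic mice all lie higher against Ttr than against the list.

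Finally, the genes whose pattern over the 6 libraries was most like each class were found, as the smallest root mean square difference of log2 CPM, centred on the gene's own mean, from the mean profile of the class. For the choroid-restricted class these were Slc28a3 (0.13), Cldn2 (0.14), Trpv4 (0.17), Slc24a1 (0.18) and 1500015O10Rik (0.19), in units of log2 CPM. All of these were closer to the mean profile than the 5 genes themselves, which ran from 0.24 (Kcne2) to 0.39 (Clic6). Cldn2 encodes a claudin of leaky tight junctions, and Slc28a3 a nucleoside transporter. For the broadly expressed class the nearest genes were Dnah7b (0.043), Cul4b (0.043), Hecw2 (0.047), Kcnv1 (0.049) and Acacb (0.053), again closer than Slc12a2, the nearest of the 5 at 0.060. These genes were chosen for their likeness, so no test is given.

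Some of the 10 genes overlap other genes in position. Kcnj13 overlaps Gigyf2, Slc4a2 overlaps Fastk and Atp1b1 overlaps Nme7, each on the opposite strand, and the authors' counting kept the strand. The overlapping genes were nearly level, with 89.7 and 86.8 CPM for Gigyf2, 66.8 and 70.0 CPM for Fastk and 14.1 and 14.6 CPM for Nme7 in the wild-type and transgenic means. Clic6 overlaps 2410124H12Rik on its own strand, which had 0.11 CPM in the wild-type mice.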

How the data were processed

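RNA from 6 hippocampi was sequenced by the study, 1 library per mouse. The authors trimmed the reads with Trimmomatic, aligned them to mm10 with STAR (versions not given in the sources used here) and counted fragments with featureCounts 1.5.0-p1 on the Ensembl 95 annotation of GRCm38. The deposited counts are whole, unnormalized fragments per gene, counted as pairs with strand setting 2, a mapping quality of at least 3 and primary alignments only. A read without a unique match could thus be counted at its primary place, if it reached this quality.

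Of 54838 genes, 19087 were kept by filterByExpr (minimum count 10) in edgeR 4.0.16. Libraries were scaled by TMM and the genotypes compared with the quasi-likelihood test, all 6 libraries entering one fit with genotype as its only term, adjusted by Benjamini-Hochberg at 0.05. FPKM were computed from the counts and the deposited gene lengths. Log2 CPM had a prior count of 2. R 4.3.3, limma 3.58.1, DESeq2 1.42.0, matplotlib 3.10.9, pandas 2.3.3 and numpy 2.4.6 under Python 3.11.15 were also used. The fits were tested on simulated data, where 1.98% of edgeR's calls were false. With a GC trend added to the simulated transgenic libraries this was 75.1%, and 6.54% with GC offsets. The comparison reported here used no such offsets, and results with them are given below. GENCODE M21 gave symbols, positions and GC content. Promoter windows were cut to the 250 bases before the start.

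The transport genes, their classes, the families and the lists were chosen with earlier results of these data known. Genes were named if they were one of the 10, if they passed the threshold in a family or in the secretion list, if they had the highest FPKM of their family's other genes, or if they were among the 5 most alike to a class. A gene covered by this rule is not reported here. Other scalings, tests, filters, offsets for GC content and gene length, the replicate number as a block and leaving out each mouse were tried. Libraries differed in depth by less than 1.5 times, and counting intervals cover counting error only. Same-numbered libraries come from different mice. With 3 mice per genotype, the p-values set each difference against the spread between these mice, which edgeR moderates over all genes. For 1 value alone, the smallest p of an exact permutation test (two-sided) would be 0.1.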

Additional observations from a re-analysis of the deposited data

How the results depend on the processing

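The log2 fold changes of the 10 transport genes kept their sign in all 180 values computed under other choices, and each moved by less than the SD of log2 CPM between mice, pooled over the genotypes. In 10 of the 180 the move was larger than the standard error of the gene, among them Clic6 without tg1 (-2.89), Slc4a2 with GC offsets (-1.28) and Slc12a2 with GC offsets (-0.52). The median of the choroid-restricted genes stayed between -2.88 and -2.76 under other scalings, tests, filters and offsets and between -3.05 and -2.64 with 1 mouse left out. That of the broadly expressed genes stayed between -0.60 and -0.52 and between -0.63 and -0.54. The number of transport genes with an adjusted p under 0.05 was 8 to 10 under the former and 7 to 8 with 1 mouse left out, when Clic6 was lost without wt1, wt2 or tg3. Of all genes tested, 304 to 1175 and 66 to 683 were lower under the same settings, beside 764 of 19087 in the fit reported above. The choice of Ttr in place of the 16 markers, made after the data were seen, shifted every gene alike, by the difference between the references, and with it turned the sign of the relative difference for Kcnj13 (0.91), Kcne2 (0.10), Aqp1 (0.69) and Clic6 (0.93).

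The number of all genes lower and higher depended on the processing. It was 1175 and 1055 with DESeq2's Wald test, 304 and 135 with GC offsets, 322 and 102 with GC offsets and the replicate block, 453 and 372 with length offsets, and 316 and 160 with length offsets and the block. A block for the replicate number gave 475 and 263, and 8 transport genes passed. Same-numbered mice are different animals and their deviations correlated by 0.399, -0.357 and 0.388 over 11191 genes, and those of differently numbered mice from -0.588 (wt3 with tg1) to 0.536 (wt3 with tg2), so the numbers were not taken as pairs. Leaving out 1 mouse gave 66 to 683 lower and 11 to 466 higher genes, with the fewest without wt1 (66 and 11), wt2 (81 and 13), tg3 (89 and 19) and tg2 (130 and 62). Of the other family genes, 2 were lower with GC offsets, with length offsets and with length offsets and the block, and 0 to 3 with 1 mouse left out. Of these genes 4 were higher with DESeq2's Wald test, 0 with the block, with GC or length offsets, alone or with the block, and 0 to 1 with 1 mouse left out, and the same counts held when the secretion list was added, where 2 to 7 were lower with 1 mouse left out. Of 180 values of the 10 named other genes, 58 no longer passed and none changed sign, and the cause was not tested. Without division by gene length, 6 of the 10 wild-type ranks moved, with Slc4a5 from 10 to 7, Kcnj13 from 4 to 8 and Kcne2 from 7 to 10, the lowest. For Slc4a5, Kcne2 and Aqp1 the transgenic counts of 40 to 143 fragments per library limit the precision.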

Other observations

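Solute carriers outside the 10 transport genes were looked up by symbol after the data had been seen. Of 294 that passed the filter, 21 (7.14%) were lower and 9 (3.06%) higher with an adjusted p under 0.05 by edgeR's test over all genes, where 4.0% and 3.1% of all genes tested were. A log2 fold change under -1 was reached by 10 of them (3.40%), where 1.54% of all genes tested reached it, and 8 of the 10 had an adjusted p under 0.05. These 8 were Slc16a8, a lactate transporter of the choroid plexus and retinal pigment epithelium (-3.27), the nucleoside transporter Slc28a3 (-3.18), the cation exchangers Slc24a1 (-3.12) and Slc24a5 (-1.41), the zinc transporter Slc39a4 (-1.68), the glucose transporter Slc2a12 (-1.50), Slc23a4 (-1.14) and Slc37a2 (-1.03). Several were low, and Slc28a3 had 18, 10 and 11 fragments in the transgenic mice. Slc2a12 was counted at 27.4, 28.1 and 19.3 CPM in the wild-type and at 6.95, 10.4 and 9.21 CPM in the transgenic mice, without overlap. Among the carriers that were higher were the zinc transporters Slc39a2 (0.65) and Slc30a3 (0.49), and Slc17a7, the vesicular glutamate transporter of hippocampal neurons (0.26).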
